A study of Mus musculus with 36 samples.

Results

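The 38 genes described here encode integrins, extracellular matrix proteins and the adaptor and actin proteins that join them, and they were examined for binding of the NuRD complex in mouse embryonic stem cells (ESCs) and in the neural progenitor cells (NPCs) derived from them. They were given as a list of names chosen with earlier results of these data known, so an excess over all genes is descriptive only. All 38 were found among the 22367 protein-coding genes of GENCODE vM1 on the mm9 build. By role, 11 are integrin receptors, 13 are matrix proteins or matrix receptors, 8 are adhesion adaptors and kinases, and 6 are actin crosslinkers or contractile proteins. ChIP-seq peak lists of 9 samples were used. MBD3 and CHD4 were precipitated from wild-type R1 ESCs grown in serum and LIF with 2i (2 replicates each) and from NPCs made from these wild-type R1 ESCs and kept in NPC medium (1 list each). SIN3A was precipitated from the same wild-type ESCs, with foreign chromatin spiked in (1 list) and without it (1 list). A GFP antibody was used for ZFP296, tagged with GFP in a line labelled as a ZFP296-BAC R1 ESC line (1 list). The methods of the study describe that line instead as a GFP-ZFP296 construct in KH2 ESCs, and which is right could not be told.

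Integrins are paired alpha and beta receptors that span the cell membrane and bind fibronectin, laminins and collagens outside the cell. Inside the cell, talin (Tln1), vinculin (Vcl), paxillin (Pxn), focal adhesion kinase (Ptk2) and the ILK-parvin complex tie the integrins to actin bundled by alpha-actinins and pulled by non-muscle myosin. NuRD is a chromatin remodelling and histone deacetylase complex that holds the ATPase CHD4 and the scaffold protein MBD3. SIN3A is the scaffold of another histone deacetylase complex, and ZFP296 is a zinc finger protein of ESCs. Laminins and fibronectin are among the first matrix proteins of the early embryo, while fibrillar collagens are typical of mesenchymal cells.

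A peak was assigned to a gene when its midpoint lay within 50 kb of the gene body, and to a gene's start when it lay within 1 kb of any annotated transcription start site (TSS). ESC sites are peaks of the shorter of the 2 lists of a factor that overlap the longer list by at least 1 bp, which gave 1508 MBD3, 8246 CHD4 and 8843 SIN3A sites. A site keeps the value of the shorter list, which is replicate 1 for MBD3 and CHD4 and the spike-in list for SIN3A. The lists held from 2304 (NPC MBD3) to 29974 peaks (ESC CHD4 replicate 2), each with a −log10 value given by the authors. Read counts per peak were not used, so counts of peaks are given and levels of binding are not compared. Peaks in the second ESC CHD4 list are named after a Zfp219 BAC, whereas the sample is labelled wild type, and the ESC CHD4 sites rest on this list as well as on replicate 1. With 2 ESC lists against 1 NPC list no test of a difference was possible, and each count of members is set beside the share of all protein-coding genes that meet the same rule. Of 14 marker genes, 12 were found: all 6 ESC markers held an ESC MBD3 site and 0 held an NPC MBD3 peak, and of 6 NPC markers 1 (Nes) held an NPC MBD3 peak and 2 (Nes and Vim) an NPC CHD4 peak. An NPC CHD4 peak also lay near 4 of the 6 ESC markers. ESC CHD4 sites lay near all 6 ESC markers and 0 NPC markers, but ESC CHD4 replicate 2 had peaks near 4 of the 6 NPC markers. Peaks do not measure expression, so the identity of the cells was not shown by these counts.

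The sequences under the NPC peaks of these genes are shown first, because the string TGACTCA or its reverse complement TGAGTCA, which is bound by the AP-1 (FOS and JUN) transcription factors, recurred in them. The lines below are 61 bases of mm9, plus strand, centred on such a string (capitals) in the 7 NPC MBD3 peaks away from a start whose nearest gene start belonged to one of the 38 genes. The last line is the NPC CHD4 peak of highest value near any of the 38 genes.
Itga3, chr11:94954603-94954663: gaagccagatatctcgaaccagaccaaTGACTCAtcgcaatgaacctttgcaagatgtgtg
Itgb3, chr11:104486189-104486249: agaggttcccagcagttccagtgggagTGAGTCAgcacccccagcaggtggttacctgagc
Lama5, chr2:179950833-179950893: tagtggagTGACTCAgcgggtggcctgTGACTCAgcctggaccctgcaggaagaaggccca
Col5a1, chr2:27698485-27698545: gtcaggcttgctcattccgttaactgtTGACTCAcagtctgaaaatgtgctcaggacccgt
Bcar1 intron, chr8:114250199-114250259: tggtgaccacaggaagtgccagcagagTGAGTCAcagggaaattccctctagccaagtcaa
Bcar1 upstream, chr8:114270083-114270143: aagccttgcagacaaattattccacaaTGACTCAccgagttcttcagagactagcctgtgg
Bcar1 upstream, chr8:114271974-114272034: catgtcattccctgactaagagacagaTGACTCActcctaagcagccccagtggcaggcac
Pxn upstream (CHD4), chr5:115947180-115947240: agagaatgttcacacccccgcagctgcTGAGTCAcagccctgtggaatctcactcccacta

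MBD3 peaks at gene starts are shown next, as the central 120 bases (mm9, plus strand) of the NPC MBD3 peaks at the starts of Itga5 and Cd44 and of the ESC MBD3 site at the start of Itga6, the receptors for fibronectin, hyaluronan and laminin, respectively. Capitals mark a GC box (GGGCGG) in the Itga5 line and the TEAD factor string GGAATG in the Itga6 line, and nothing is marked in the Cd44 line.
Itga5, chr15:103197114-103197233: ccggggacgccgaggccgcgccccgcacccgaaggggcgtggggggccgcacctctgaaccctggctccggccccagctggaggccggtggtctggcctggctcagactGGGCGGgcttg
Cd44, chr2:102741699-102741818: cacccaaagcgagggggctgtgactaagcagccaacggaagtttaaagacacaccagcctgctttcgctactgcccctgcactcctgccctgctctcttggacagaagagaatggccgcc
Itga6, chr2:71583322-71583441: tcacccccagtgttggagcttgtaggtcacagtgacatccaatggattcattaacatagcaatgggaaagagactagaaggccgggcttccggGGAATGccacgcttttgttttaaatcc

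In NPCs, 21 of the 38 genes (55.3%) had an MBD3 peak within 50 kb, against 15.7% of all protein-coding genes. Replicate 1 of ESC MBD3 had a peak near 11 members (28.9%, all genes 15.8%) and replicate 2, the longer list, near 22 members (57.9%, all genes 33.1%). ESC MBD3 sites, present in both replicates, were found near 8 members (21.1%, all genes 10.1%). For CHD4, 36 members (94.7%) had an NPC peak, where 57.9% of all genes had. In ESCs, CHD4 replicate 1 had a peak near 23 members (60.5%, all genes 43.0%), replicate 2 near 31 (81.6%, all genes 67.7%), and sites in both near 20 (52.6%, all genes 36.8%). GFP-ZFP296 had peaks near 14 members (36.8%, all genes 21.9%). SIN3A had peaks near 29 members without spike-in (76.3%, all genes 65.1%), near 31 with spike-in (81.6%, all genes 59.2%), and in both preparations near 28 (73.7%, all genes 53.5%). Over genes of all lengths, members thus exceeded the background in every list, with the widest gap in NPC MBD3. The genes were chosen with earlier results of these data known, so this excess is a description and was not tested.

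**Figure D1:**
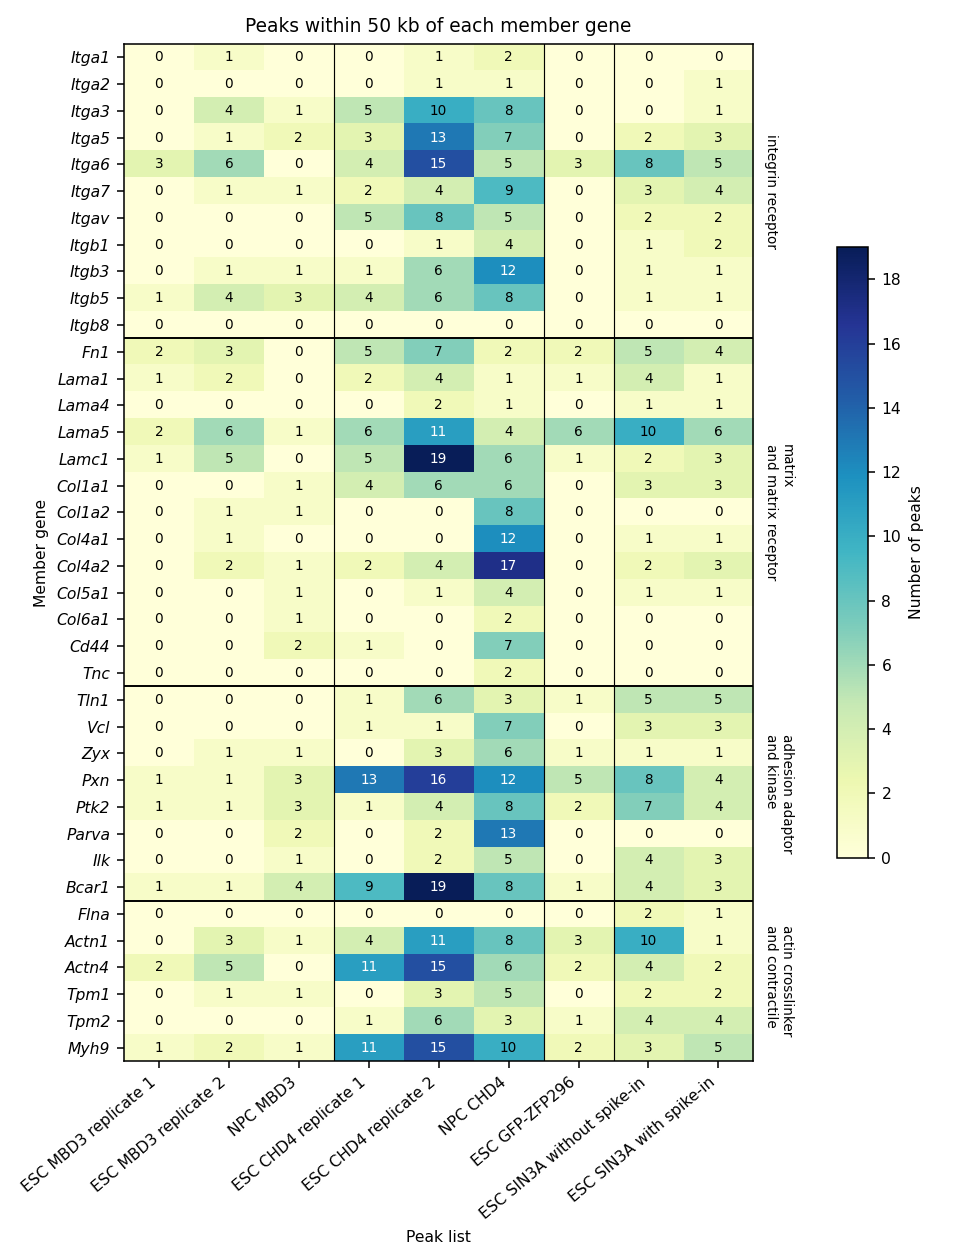
Number of peaks with a midpoint within 50 kb of each of the 38 genes (rows, grouped by role) in each of the 9 lists (columns), with the number printed in each cell and on the colour scale. Itgb8 is at 0 in all lists, Col4a2 reaches 17 in NPC CHD4, and Bcar1 holds the largest number of NPC MBD3 peaks, 4.

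These genes are long, and a longer gene has a wider window. The median body of the members was 68.4 kb and that of all protein-coding genes 15.4 kb. Among genes with a body of at least 50 kb, NPC MBD3 peaks lay near 9 of 22 members (40.9%) and near 21.3% of 4841 genes, so the gap was narrower than over all lengths. Long members had a lower share than all members (55.3%), whereas long genes had a higher share than all genes (15.7%). The gap was thus wider among genes with shorter bodies. For NPC CHD4 the shares of long genes were 95.5% of members and 69.8% of all, and for ESC MBD3 sites 27.3% and 13.8%. Little of the gap was left for SIN3A without spike-in (72.7% and 70.8%) and ESC CHD4 replicate 2 (81.8% and 75.3%). Per length, the merged windows of the members (6.40 Mb) held 5.16 NPC MBD3 peaks per Mb, against 1.19 per Mb in the windows of all genes, a ratio of 4.34. The same ratio was 3.38 for NPC CHD4, 2.76 for GFP-ZFP296, 2.66 for ESC CHD4 sites (2.42 for replicate 1 alone), 2.56 for ESC MBD3 sites and 1.72 for SIN3A sites. All 6 ratios were above 1, and the 2 highest were those of the NPC lists. Of the whole lists, 1.43% of NPC MBD3 peaks (exact 95% interval 0.988 to 2.01%) and 0.862% of ESC MBD3 sites (0.460 to 1.47%) lay in these windows, and the intervals overlap. The intervals cover counting error only.

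**Figure D2:**
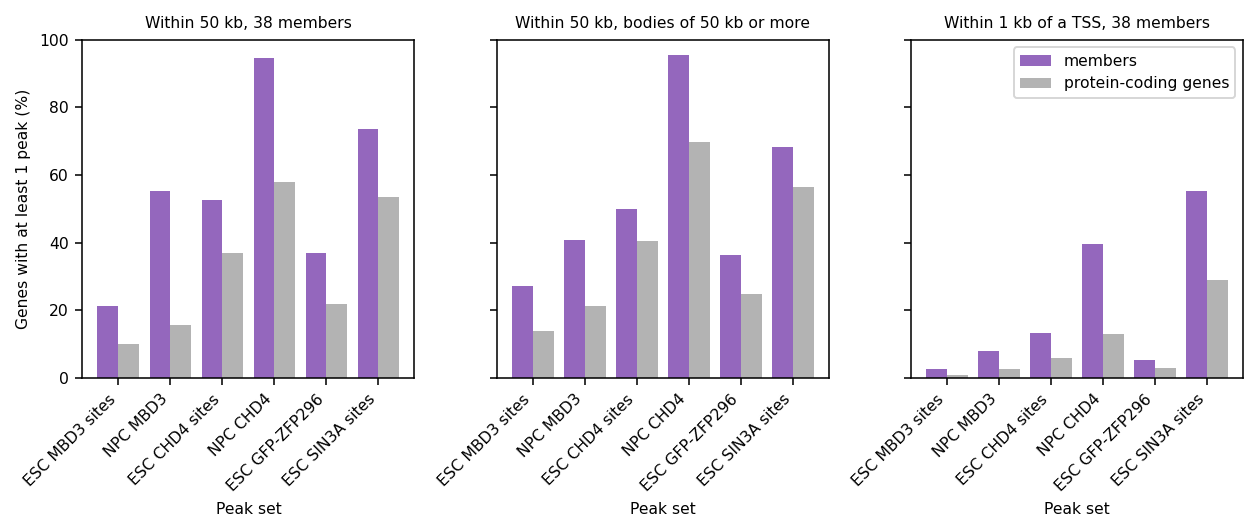
Percent of genes with at least 1 peak (y axis, bars from 0) in 6 peak sets (x axis), for members (purple) and protein-coding genes (grey), within 50 kb, within 50 kb for bodies of at least 50 kb, and within 1 kb of a TSS. Member bars are above the grey bars in each panel, for example 55.3% against 15.7% for NPC MBD3 within 50 kb.

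Setting NPCs against ESCs, 17 members had an NPC MBD3 peak and no ESC MBD3 site (44.7%, all genes 12.8%). The reverse, an ESC site and no NPC peak, was seen at 4 members (10.5%, all genes 7.23%), namely Itga6, Fn1, Lamc1 and Actn4. Another 4 members had both (all genes 2.90%), namely Itgb5, Lama5, Ptk2 and Bcar1. Counts of NPC MBD3 peaks lay above both ESC lists at 10 members (26.3%, all genes 7.94%) and below both at 6 (15.8%, all genes 10.3%). The 6 below were Itga6, Fn1, Lama1, Lama5, Lamc1 and Actn4. A stricter rule, an NPC MBD3 peak and 0 peaks in either ESC list, was met by 6 members (15.8%, all genes 6.81%): the collagen genes Col1a1, Col5a1 and Col6a1, the hyaluronan receptor gene Cd44, and Parva and Ilk, whose products form a complex at the integrin tail. With replicate 1 alone standing for the ESCs the 17 members became 15 (39.5%, all genes 11.2%), and with replicate 2 alone 6 (15.8%, all genes 7.53%).

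For CHD4, an NPC CHD4 peak without an ESC CHD4 site was found at 16 members (42.1%, all genes 28.8%), the reverse at 0 members (all genes 7.68%), and both at 20 (52.6%, all genes 29.2%). The NPC count was above both ESC lists at 18 members (47.4%, all genes 19.9%) and below both at 7 (18.4%, all genes 20.6%). The 7 were Fn1, Lama1, Lama5, Pxn, Actn4, Myh9 and Bcar1. With CHD4 replicate 1 alone, the 16 became 13 members (34.2%, all genes 24.5%). With replicate 2 alone they became 5 (13.2%, all genes 8.62%), namely those with 0 peaks in it and an NPC peak (Col1a2, Col4a1, Col6a1, Cd44 and Tnc).

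**Figure D3:**
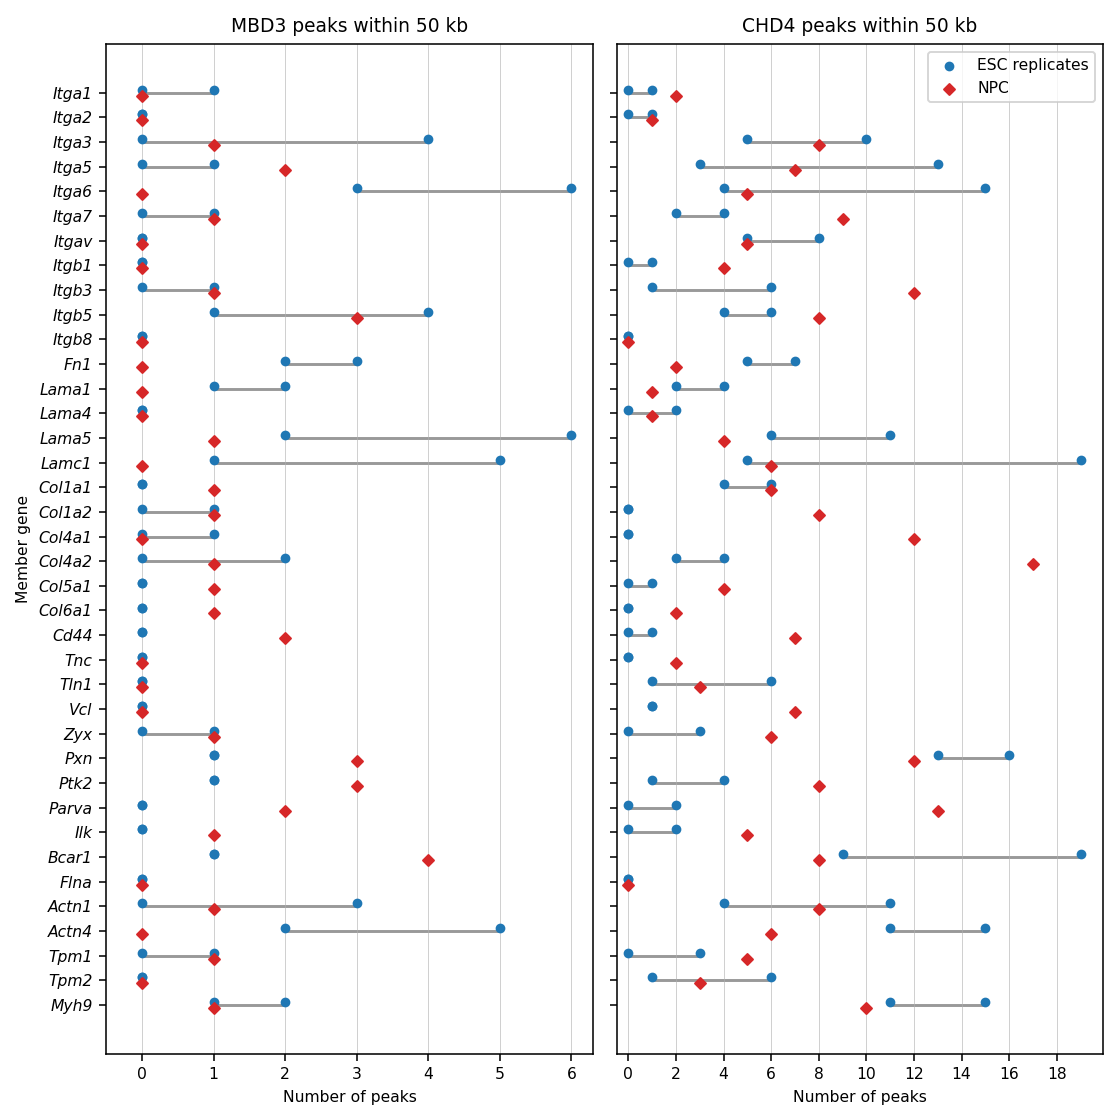
Number of MBD3 (left) and CHD4 (right) peaks within 50 kb (x axis) of each gene (y axis), with blue points for the 2 ESC replicates joined by a grey line and a red diamond for the single NPC list. The diamond lies right of both blue points at 10 genes for MBD3 and 18 for CHD4, and left of both at 6 and 7 genes.

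Among the integrin receptors, Itga6 (chr2:71583673-71696473, plus strand) encodes the alpha-6 chain of laminin receptors. It had 3 and 6 MBD3 peaks in the ESC replicates and 0 in NPCs. All 3 ESC MBD3 sites near it met a GFP-ZFP296 peak and an ESC CHD4 site. Those at −41121 and −26449 bp lay nearer to the start of Gm1631. The site at the start of Itga6 (chr2:71583178-71583585, at −291 bp) had a replicate 1 value of 14.1. That was above 84.0% of ESC MBD3 sites and the highest near any member in that replicate. In replicate 2 the overlapping peak had a value of 9.76, above 64.8% of that list. The highest replicate 2 value near any member was 17.0, in an Fn1 intron. The sequence of the Itga6 start site is the Itga6 line above. This was the only member start with an ESC MBD3 site (1 of 38, 2.63%, all genes 0.805%). The site itself met no NPC CHD4 peak. Within 50 kb, Itga6 had 4 and 15 CHD4 peaks in ESCs and 5 in NPCs. The 2 NPC CHD4 peaks within 1 kb of its 9 annotated starts lay at internal starts (−293 and 399 bp).

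Itga5 (chr15:103174720-103197194, minus strand), the alpha chain of the fibronectin receptor, had 0 and 1 MBD3 peaks in ESCs and 2 in NPCs. The NPC peak at its only annotated start (chr15:103197090-103197258, at 20 bp) had a value of 6.86, above 27.2% of the list, and met an NPC CHD4 peak. The other NPC peak lay at −11704 bp, and its value was 7.55. CHD4 peaks near Itga5 numbered 3 and 13 in ESCs and 7 in NPCs, between the ESC lists. The highest-valued SIN3A site near any member was also assigned to Itga5 (chr15:103135690-103136012, value 35.7), but the nearest start there was that of Gpr84.

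Itgb5 (chr16:33829751-33949239, plus strand), the beta chain of a vitronectin receptor, had 1 and 4 MBD3 peaks in ESCs and 3 in NPCs. An NPC peak (chr16:33892144-33892339, value 6.78) lay 209 bp from an internal start, of 5 annotated. Of all 33 NPC MBD3 peaks near members, the peak at −47434 bp of Itgb5, nearer to Muc13, was the only one to meet an ESC MBD3 peak, and that was in replicate 2. CHD4 peaks near Itgb5 numbered 4 and 6 in ESCs and 8 in NPCs.

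Itga3 (chr11:94905788-94938115, minus strand), an alpha chain of laminin receptors, had 0 and 4 MBD3 peaks in ESCs and 1 in NPCs. That NPC peak (chr11:94954535-94954817, at −16561 bp) had a value of 19.9, above 95.9% of the list. It met an NPC CHD4 peak and no peak of any ESC list, and it carries the AP-1 string of the Itga3 line above. Itgb3, the beta chain of the platelet and vitronectin receptors, had 1 and 6 CHD4 peaks in ESCs and 12 in NPCs, with 1 NPC MBD3 peak in its body. Itgb8, a beta chain known for activating TGF-beta, had 0 peaks in all 9 lists in a window of its 80.8 kb body and 50 kb on either side. Itgb1, the beta chain shared by most matrix-binding integrins, had 0 MBD3 peaks in all 3 lists, and 0, 1 and 4 CHD4 peaks in ESC replicate 1, replicate 2 and NPCs. Itgav also had 0 MBD3 peaks, with 5 and 8 CHD4 peaks in ESCs and 5 in NPCs. The remaining integrin genes Itga1, Itga2 and Itga7 had at most 1 MBD3 peak in any list, and Itga7 had 2 and 4 CHD4 peaks in ESCs and 9 in NPCs.

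Among the matrix genes, Fn1 (chr1:71632094-71699774, minus strand), which encodes fibronectin, had 2 and 3 MBD3 peaks in ESCs and 0 in NPCs, and 5 and 7 CHD4 peaks in ESCs against 2 in NPCs. Its 2 ESC MBD3 sites lay in an intron at 2206 bp (value 8.20) and upstream at −20380 bp (value 9.06). The overlapping replicate 2 peaks had values of 17.0 and 13.7. Both sites met GFP-ZFP296 and ESC CHD4 sites, and for both the nearest start was that of Apol7d. The intronic ZFP296 peak had a value of 13.5.

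Lama5 (chr2:179911078-179960564, minus strand) encodes the alpha-5 chain of laminin. MBD3 peaks near it numbered 2 and 6 in ESCs and 1 in NPCs, and CHD4 peaks 6 and 11 in ESCs and 4 in NPCs. Its site at −1716 bp (chr2:179962151-179962409, value 9.09) was the only one of the 13 ESC MBD3 sites near members that met an NPC CHD4 peak, whose value was 24.4. The NPC MBD3 peak of Lama5 lay elsewhere, in an intron at 9671 bp, and carries the 2 AP-1 strings of the Lama5 line. Lama5 also held 6 GFP-ZFP296 peaks, the largest number near any member.

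Lamc1 (chr1:155066052-155179916, minus strand), the gamma chain of most laminins, had 1 and 5 MBD3 peaks in ESCs and 0 in NPCs. Its ESC site (chr1:155223488-155224093, value 9.31) lay at −43875 bp, nearer to the start of E330020D12Rik. Lamc1 had 5 and 19 CHD4 peaks in ESCs, a wide disagreement between replicates, and 6 in NPCs. Lama1, a laminin chain of embryonic basement membranes, had 1 and 2 MBD3 peaks in ESCs that were not at shared positions, and 0 in NPCs. An intron of Lama1 held the GFP-ZFP296 peak of highest value near any member (chr17:68090654-68090900, value 57.3, above 99.7% of the list). It holds the string TTAGGG, met SIN3A without spike-in and met no MBD3 or CHD4 peak. Lama4 had 0 MBD3 peaks in all 3 lists.

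Col1a1 and Col1a2, the chains of type I collagen, had 0 and 0 (Col1a1) and 0 and 1 (Col1a2) MBD3 peaks in the ESC replicates, and each had 1 in NPCs. The Col1a1 peak (chr11:94794930-94795186, at −2480 bp) had a value of 14.9 and holds a TEAD string. CHD4 peaks near Col1a1 numbered 4 and 6 in ESCs and 6 in NPCs. Around Col1a2, CHD4 had 0 peaks in either ESC list and 8 in NPCs. Col4a1 and Col4a2, the divergent neighbours that encode basement membrane collagen IV, had 0 and 0 (Col4a1) and 2 and 4 (Col4a2) CHD4 peaks in ESCs. In NPCs they had 12 and 17, of which 6 lay in both windows. Col5a1 and Col6a1 had 1 NPC MBD3 peak each, that of Col6a1 (value 4.66) being the weakest of the 33 and nearer to Col6a2. Cd44 (chr2:102651298-102741822, minus strand) had 0 MBD3 peaks in either ESC list and 2 in NPCs, at its 5′ start (chr2:102741678-102741840, value 7.02) and in an intron. CHD4 peaks near Cd44 numbered 1 and 0 in ESCs and 7 in NPCs, including a peak of value 17.3 over the start. Tnc, an anti-adhesive matrix glycoprotein, had 2 NPC CHD4 peaks and 0 peaks in the other 8 lists.

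By the 50 kb window, adaptors and kinases carried the most NPC MBD3 peaks: 14 of the 33 lay near these 8 genes, 6 of which had at least 1. Many of the 14, those of Pxn, Zyx and Ilk among them, had another gene's start as their nearest. Counting only peaks whose nearest start was that of the assigned gene, the matrix genes had more. Bcar1 (chr8:114234367-114267748, minus strand), which encodes the scaffold p130Cas that focal adhesion kinase and Src phosphorylate, had 1 and 1 MBD3 peaks in ESCs and 4 in NPCs. The 4 NPC peaks had values of 13.9, 12.6, 11.5 and 5.83, lay from −36091 bp upstream to an intron, and had the start of Bcar1 as their nearest. Of these, 3 carry the AP-1 strings shown above. For CHD4 the order was the opposite, with 9 and 19 peaks in ESCs and 8 in NPCs.

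Pxn (chr5:115956685-116005996, plus strand), the adaptor paxillin, had 1 and 1 MBD3 peaks in ESCs and 3 in NPCs. The 3 NPC peaks clustered between −16560 and −13501 bp, where the nearest start was that of Sirt4. The first of them (chr5:115939969-115940281) had a value of 29.7, above 98.7% of NPC MBD3 peaks and the highest near any member, and it was the only one of the 33 to meet a GFP-ZFP296 peak. The NPC CHD4 peak of highest value near any member lay nearby (chr5:115947045-115947382, at −9471 bp, value 48.4, above 99.8% of the list), and it met no peak in any other list. Pxn also had 5 GFP-ZFP296 peaks, including a peak at an internal start (value 9.24) and a peak of value 20.5 upstream. A ZFP296 peak at a start was otherwise seen only at Itga6 (2 of 38 members, 5.26%, all genes 2.88%), and the Pxn start is lost when the 5′ end of the gene alone is used. CHD4 peaks near Pxn numbered 13 and 16 in ESCs and 12 in NPCs.

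Ptk2, which encodes focal adhesion kinase, had 1 and 1 MBD3 peaks in ESCs and 3 in NPCs, spread from −11906 bp to beyond its 218 kb body, where Eif2c2 is nearer. Parva, an actin-binding partner of ILK, had 0 MBD3 peaks in either ESC list and 2 in NPCs, and 0 and 2 CHD4 peaks in ESCs against 13 in NPCs. Its upstream NPC CHD4 peak (chr7:119543980-119544210) had a value of 25.4 and an AP-1 string. Ilk had 0 MBD3 peaks in ESCs and 1 in NPCs, nearer to Dchs1. Zyx had 0, 1 and 1 MBD3 peaks in ESC replicate 1, replicate 2 and NPCs. Tln1 and Vcl had 0 in all 3 lists, although Vcl had 1 and 1 CHD4 peaks in ESCs and 7 in NPCs.

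Actin genes showed no common direction. Actn4 (chr7:29678267-29747359, minus strand), an alpha-actinin, had 2 and 5 MBD3 peaks in ESCs and 0 in NPCs, and 11 and 15 CHD4 peaks in ESCs against 6 in NPCs. Its ESC MBD3 sites lay at −4922 and −7467 bp, with low values of 4.67 and 5.17 in replicate 1. In replicate 2 the overlapping peaks had values of 11.8 and 13.9, above 78.1% and 86.8% of that list. Its relative Actn1 had 0 and 3 MBD3 peaks in ESCs and 1 in NPCs, with 4 and 11 CHD4 peaks in ESCs and 8 in NPCs. Myh9, the heavy chain of non-muscle myosin IIA, had 1, 2 and 1 MBD3 peaks in ESC replicate 1, replicate 2 and NPCs, and its NPC peak in an intron holds both a TEAD string and a CArG box, the string bound by serum response factor. Tpm1, a tropomyosin, had 1 NPC MBD3 peak nearer to Lactb, and 0, 3 and 5 CHD4 peaks in ESC replicate 1, replicate 2 and NPCs. Tpm2 had 0 MBD3 peaks and Flna, the filamin on the X chromosome, 0 MBD3, CHD4 or ZFP296 peaks, with 2 and 1 SIN3A peaks without and with spike-in.

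**Figure D4:**
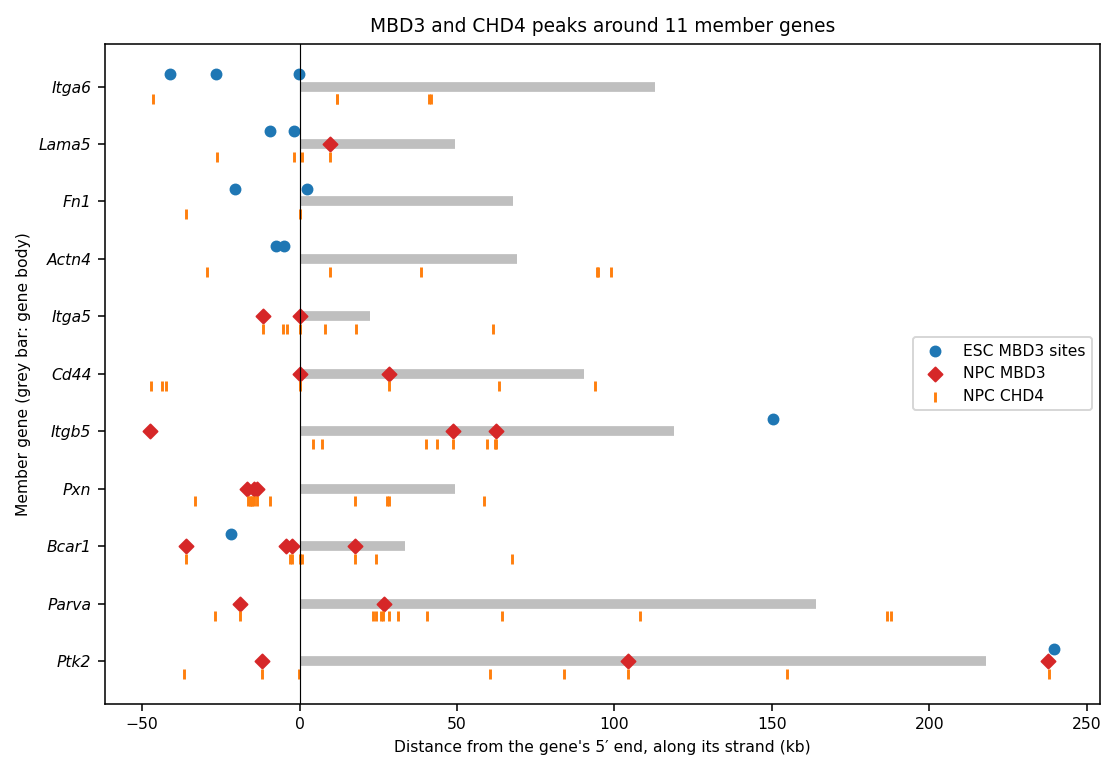
Positions of ESC MBD3 sites (blue circles), NPC MBD3 peaks (red diamonds) and NPC CHD4 peaks (orange ticks) around 11 of the genes, in kb from the gene's 5′ end along its strand, with the gene body as a grey bar. Itga6, Fn1 and Actn4 carry blue circles and no red diamonds, Cd44, Itga5, Pxn and Parva the reverse, and no ESC site overlaps an NPC MBD3 peak.

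At the starts themselves the numbers were small. NPC MBD3 lay within 1 kb of a TSS of 3 members (Itga5, Itgb5 and Cd44, 7.89%, all genes 2.49%). ESC CHD4 sites lay at the starts of 5 members (Itga6, Itgb5, Lama5, Pxn and Bcar1, 13.2%, all genes 5.92%) and NPC CHD4 at those of 15 (39.5%, all genes 13.1%). Replicate 1 of ESC CHD4 alone also gave 5 members (all genes 8.49%), whereas replicate 2 alone gave 16 (42.1%, all genes 22.9%), so whether ESCs or NPCs had more members with CHD4 at a start depends on the ESC list. SIN3A sites were at the starts of 21 members (55.3%, all genes 28.8%), and 26 of the 58 SIN3A sites near members were start peaks. Of the 33 NPC MBD3 peaks near members, 3 were at a start of the assigned gene, 9 were in introns and 21 were outside the gene. Of the whole lists, 24.5% of NPC MBD3 peaks and 82.7% of SIN3A sites lay within 1 kb of the start of any gene. For 20 of the 33 the assigned gene also had the nearest start, and 0 of the 33 were assigned to 2 members. Among the 13 ESC MBD3 sites near members, the assigned gene had the nearest start for 6.

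MBD3 and CHD4 met at these genes much as elsewhere. Of the 33 NPC MBD3 peaks, 30 overlapped an NPC CHD4 peak (90.9%, exact 95% interval 75.7 to 98.1%), beside 84.9% of the whole list. None overlapped an ESC MBD3 site (0 of 33, exact interval up to 10.6%), beside 3.04% of the list, and 1 of the 33, at Itgb5, met a peak of ESC MBD3 replicate 2 alone. Of the 13 ESC MBD3 sites near members, 11 met an ESC CHD4 site (84.6%, 54.6 to 98.1%), beside 84.5% of all sites, and with CHD4 replicate 1 alone the number was also 11 (beside 85.9%). GFP-ZFP296 met 10 of the 13 (76.9%, interval from 46.2%), beside 42.0% of all ESC MBD3 sites, and 1 of the 33 NPC MBD3 peaks (3.03%, 0.0767 to 15.8%), beside 1.04%. These shares rest on few peaks, and the difference from the lists was not tested.

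Short strings were counted on either strand, in windows of 200 bp around peak midpoints. An AP-1 string was present in 14 of the 33 NPC MBD3 peaks near members (42.4%, 25.5 to 60.8%), beside 47.6% of the whole list and 92 of 2302 regions 10 kb downstream. In NPC CHD4 it was present in 84 of 217 (38.7%, 32.2 to 45.5%), beside 42.3% of the list. In ESCs it was found in 1 of 13 MBD3 sites, 1 of 77 CHD4 sites (1.30%, 0.0329 to 7.02%; 1 of 100 peaks in replicate 1 alone), 0 of 30 ZFP296 peaks (up to 11.6%) and 2 of 58 SIN3A sites. The shares near these genes were thus no higher than in the whole NPC lists. The TEAD string GGAATG was present in 10 of the 33 NPC MBD3 peaks (30.3%, 15.6 to 48.7%), beside 17.7% of the list, an interval that includes that share. The GC box GGGCGG, common at starts, was found in 36 of 58 SIN3A sites near members (62.1%, 48.4 to 74.5%), beside 55.1% of all, and in 5 of the 33 NPC MBD3 peaks (15.2%), beside 21.8%. The octamer ATGCAAAT was found in 1 of the 33 NPC MBD3 peaks, the Pxn peak of highest value, and in 0 of 13 ESC MBD3 sites (up to 24.7%). The SOX2 string CCATTGT was found in 0 of the 33 and 1 of the 13, the Lamc1 site, and the telomere unit TTAGGG in 0 of the 33 and 3 of the 13. A CArG box was found in 1 of the 33 and 0 of the 13. In all of ESC MBD3 replicate 1, TTAGGG was in 8.80% of peaks and 8.97% of regions 10 kb downstream. There GGAATG was in 16.2% and 10.5%, CCATTGT in 6.40% and 2.60%, and ATGCAAAT in 4.82% and 1.41%. Such strings thus also occurred away from peaks. A matching string is a description and not a measured factor.

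**Figure D5:**
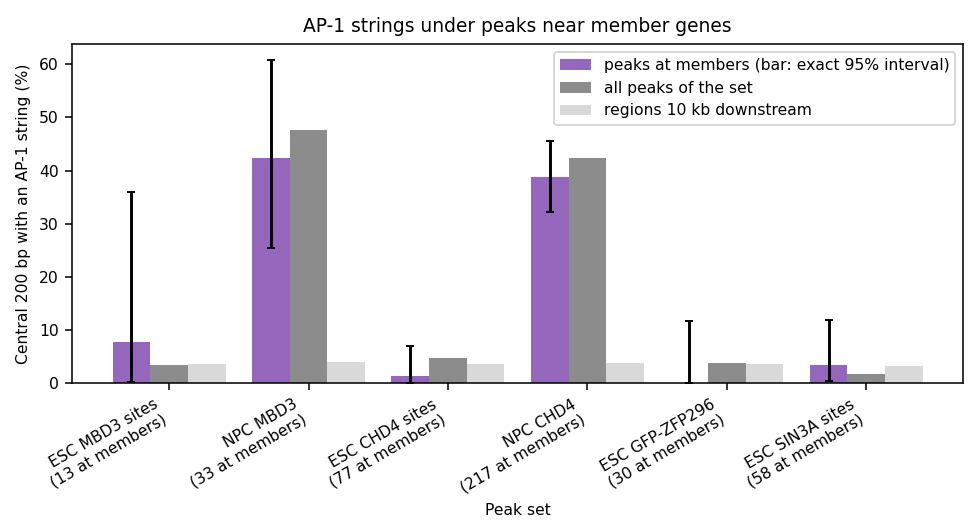
Percent of peaks whose central 200 bp hold TGACTCA or TGAGTCA (y axis) in 6 peak sets (x axis, with the number of peaks near members), for peaks near members (purple, with exact 95% intervals), all peaks of the set (dark grey) and regions 10 kb downstream (light grey). NPC MBD3 (42.4%) and NPC CHD4 (38.7%) stand at about the level of their whole lists, and the 4 ESC sets at a low level.

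The other genes of the adhesion and matrix pathway were counted in the same way. Of 87 listed genes 86 were found. NPC MBD3 peaks lay near 37 of them (43.0%, all genes 15.7%) and NPC CHD4 near 75 (87.2%, all genes 57.9%). ESC MBD3 sites lay near 20 (23.3%, all genes 10.1%) and ESC CHD4 sites near 46 (53.5%, all genes 36.8%). ESC CHD4 replicate 1 alone had peaks near 50 (58.1%, all genes 43.0%). GFP-ZFP296 lay near 33 (38.4%, all genes 21.9%). SIN3A sites lay near 47 (54.7%), about the share of all genes (53.5%). The shares for NPC MBD3, NPC CHD4 and SIN3A were below those of the members, and the other 3 were slightly above. At starts, NPC MBD3 lay at 6 (6.98%, all genes 2.49%), of which 4 were actin genes. Tns1, the adaptor tensin 1, had 4 NPC MBD3 peaks, with 1 and 5 in ESCs. Another 9 genes had 3, tied for the next places: Lpp, Cav1, Hspg2, Sdc4, Cald1, Itgb4, Itgb7, Flnc and Col6a2. Cav1, Flnc and Col6a2 had 0 MBD3 peaks in either ESC list, and Cav1, the caveolin that coats membrane pits, had 11 NPC CHD4 peaks and 0 in either ESC list.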

How the data were processed

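ChIP-seq peak lists of 9 of the 36 samples were used, and the other 27 (inputs, histone marks, spike-in and knockout samples) were not analysed here. The authors aligned reads to mm9, kept uniquely mapped reads without duplicates and called peaks for each sample against an input with MACS (version 2.0 in the submitters' processing notes). Each deposited peak has a −log10 value, and whether it comes from a p or a q is not stated. It was used only within a list. Names of the peaks in all but the SIN3A lists mention scaling to equal read numbers, and the depth of each sample is unknown here. The SIN3A list without spike-in was called at another threshold than the rest.

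Members were the 38 named genes, taken from GENCODE vM1 (the build of the files). Members, pathway list, markers and strings were chosen with earlier results of these data known. Groups came from the sample titles. Named were genes with MBD3 or ZFP296 at a start, the 6 with most NPC MBD3 peaks or ESC MBD3 sites, those with the 3 highest values in 5 peak sets and those with 0 peaks. Ties were kept. Shares carry exact (Clopper-Pearson) 95% intervals. No test was made, since 2 lists against 1 allow none. Windows, thresholds, list lengths and site rules were varied. The windows of 4 pairs of members overlap. Counting was tested on simulated data. Scripts ran in Python 3.11.15 with pyfaidx 0.9.0.4 for sequence, scipy 1.17.1 for intervals, matplotlib 3.10.9 for plots and numpy 2.4.6.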

Additional observations from a re-analysis of the deposited data

How the results depend on the processing

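Values are percentages of members, or of a list for the share of peaks in member windows. Of 201 values under alternatives, 137 stayed within 1.5 times the value given above (or within its interval) and 64 moved. Some of the 137 could not move. Control regions taken 10 kb upstream change only the control (3 values), and lists of equal length leave NPC MBD3, the shortest list, as it is. Where a value moved, the cause was not tested beyond what the alternative itself removes or adds. The share of members with an NPC MBD3 or NPC CHD4 peak within 50 kb was above that of all genes in each of the 8 settings run for it, the main setting included. The same held for GFP-ZFP296 in 8 of 8 settings, and for ESC CHD4 sites and SIN3A sites in 10 of 10. For ESC MBD3 sites it held in 9 of 10, so it was not particular to the NPC lists. The excess at starts was less steady. Members fell below all genes in 2 of 8 settings for ESC MBD3 sites and 1 of 8 for SIN3A sites. They also did so in 1 of 6 for NPC MBD3 and 1 of 6 for GFP-ZFP296. For CHD4 at starts, members stayed above in 8 of 8 settings (ESC sites) and 6 of 6 (NPC). No paired analysis was possible because no test was made and the NPC lists carry no replicate numbers.

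A window of 10 kb gave 10.5% of members with an ESC MBD3 site, 28.9% with an NPC MBD3 peak and 21.1% with GFP-ZFP296, and for MBD3 26.3% NPC only and 2.63% both. List shares were then 0.398% (ESC MBD3 sites), 0.651% (NPC MBD3), 0.400% (ESC CHD4 sites), 0.633% (NPC CHD4), 0.484% (ZFP296) and 0.396% (SIN3A). With 100 kb the shares of ESC CHD4 sites, NPC CHD4 and SIN3A were 1.20%, 1.48% and 0.905%.

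Each list was filtered before ESC sites were formed, so a site was lost where its peak in either list fell short: the site at the start of Itga6 had a value of 14.1 in replicate 1 and 9.76 in replicate 2. Keeping peaks with a value of at least 10, ESC MBD3 sites reached 0 members within 50 kb (all genes 3.23%), 0 at a start and 0% of the list. Within 50 kb, NPC MBD3 gave 18.4% (all genes 6.94%), ESC CHD4 sites 26.3% (0.609% of the list) and ZFP296 15.8%. At starts, NPC MBD3 and ZFP296 gave 0, ESC CHD4 sites 5.26%, NPC CHD4 10.5% and SIN3A 31.6%. For MBD3 this left 18.4% NPC only, 0 ESC only and 0 both, and for CHD4 2.63% ESC only and 23.7% both.

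With every list shortened to its 2304 peaks of highest value, ESC MBD3 sites gave 13.2% within 50 kb and 0 at starts, ESC CHD4 sites 7.89% and 5.26% (0.484% of the list), NPC CHD4 36.8% and 2.63%, and SIN3A 15.8% and 2.63%. MBD3 in both cell types fell to 5.26%, and CHD4 was 2.63% ESC only and 5.26% both.

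A start window of 5 kb on either side gave 10.5% for ESC MBD3 sites, 13.2% for NPC MBD3, 23.7% for ESC CHD4 sites, 60.5% for NPC CHD4 and 13.2% for ZFP296. From 1 kb upstream to 5 kb downstream, ESC MBD3 sites gave 5.26%, and with the 5′ end of the gene alone ZFP296 gave 2.63%. Among genes of at least 50 kb, an alternative added after the data were seen, 18.2% of members were ESC only for MBD3.

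Leaving out an ESC list mattered most where the longer list alone was kept, without replicate 1. From 1 ESC list alone, MBD3 lay near 28.9 to 57.9% of members and at the starts of 2.63 to 7.89%, with list shares of 0.683 to 0.689%. NPC-only MBD3 members ranged from 15.8 (without replicate 1) to 39.5% (without replicate 2), ESC-only from 13.2 to 18.4% (without replicate 1 below all genes, 25.0%) and both from 15.8 to 39.5%. For CHD4 the ranges were 60.5 to 81.6% within 50 kb, 13.2 to 42.1% at starts, 0.717 to 0.854% of the list, 13.2 to 34.2% NPC only and 60.5 to 81.6% both. SIN3A moved under neither single list.

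A central window of 500 bp raised the AP-1 share to 51.2% of NPC CHD4 and 9.09% of ESC CHD4 sites near members, beside 8.91% and 8.67% of control regions, and among ESC CHD4 sites filtered on their own value (at least 10) it was 0 of 18. Peak lists without read counts limit all of these counts to what the authors' thresholds called.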
